A study of Mus musculus with 12 samples.

Results

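Glycogen is the branched polymer of glucose in which the liver stores sugar. The genes described here are 9 genes of its synthesis and breakdown in the mouse liver, chosen by name for their known function: Ugp2, Gyg, Gys2, Gbe1, Pygl, Phka2, Ppp1r3b, Ppp1r3c and Ppp1r3g. Of these, 8 had a row among the 20069 genes of the RNA-Seq table. Ppp1r3g had no row under its symbol and was not analysed here. All 8 genes passed the expression minimum (at least 1 value above 8 reads per base pair), as did 10198 genes in all. The mRNA of whole livers came from adult wild-type C57BL/6 males kept in 12 hr of light and 12 hr of darkness, with no mutant or treated group. Livers were taken every 4 hr from Zeitgeber time (ZT, hours after lights on) 2 to 22, in 2 independent series of 6 samples. A group is therefore a time point with 2 samples from different animals, and all p-values rest on these few samples only. The permutation p-values compare orders of a gene's values and do not measure the spread between the 2 samples of a time point. The level of an mRNA is its mean coverage in reads per base pair of exon (rpbp).

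The liver takes up glucose after meals, links it to UDP, and adds it to glycogen chains that start on the protein glycogenin. Glycogen synthase lengthens the chains, the branching enzyme adds side chains, and glycogen phosphorylase takes glucose units off again between meals. Phosphorylation switches the synthase off and the phosphorylase on. Protein phosphatase 1 reverses both, and its PPP1R3 subunits bring it to the glycogen particle. Mice feed mainly in the dark phase. Animal feeding, glycogen, enzyme activity and phosphorylation were not measured in the data used here.

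Promoter sequences are shown for Ppp1r3c, because this gene had the strongest mRNA rhythm of the group and its promoter held a match to a clock motif, and for Ugp2 and Gbe1, 2 enzymes of synthesis whose levels varied most alike among the 8 genes over the 12 samples. The RefSeq table (GRCm38.p6) held a promoter for 6 of the 8 genes. It held none for Gys2 and Ppp1r3b, whose promoters were therefore not searched. Each window was placed on mm9 by an exact match of its 250 bases before the gene start. Bases that lie in an annotated exon were left out, 49 bases of the Ppp1r3c window and none of the others shown. Capitals mark the E-box CACGTG, the letters that CLOCK and BMAL1 are known to bind.
Ppp1r3c, chr19:36811144-36811344, minus strand: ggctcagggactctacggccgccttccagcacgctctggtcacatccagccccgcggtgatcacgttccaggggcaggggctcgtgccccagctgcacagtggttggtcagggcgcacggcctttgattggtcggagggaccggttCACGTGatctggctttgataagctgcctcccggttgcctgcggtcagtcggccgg
Ugp2, chr11:21271271-21271520, minus strand: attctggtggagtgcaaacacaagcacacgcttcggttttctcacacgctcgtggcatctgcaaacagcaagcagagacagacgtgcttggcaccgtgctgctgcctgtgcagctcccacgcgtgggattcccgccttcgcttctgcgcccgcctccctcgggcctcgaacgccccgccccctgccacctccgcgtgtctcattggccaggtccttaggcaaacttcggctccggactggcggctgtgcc
Gbe1, chr16:70313944-70314193, plus strand: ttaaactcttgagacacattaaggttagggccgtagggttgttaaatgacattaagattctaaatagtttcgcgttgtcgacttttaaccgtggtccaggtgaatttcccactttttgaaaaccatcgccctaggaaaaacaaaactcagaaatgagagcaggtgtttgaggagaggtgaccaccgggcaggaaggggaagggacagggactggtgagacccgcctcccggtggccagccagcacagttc

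The E-box of Ppp1r3c began 104 bases before the RefSeq start. It was the only match in the 7 windows of the 6 genes (Ugp2 has 2 starts) when both strands were searched for the E-box, the D-box (TTATGTAA or TTACGTAA), the core of the ROR element (TAGGTCA or TGGGTCA) and the cAMP response element (TGACGTCA). Of 32851 mouse promoter windows of the same length, 6.02% held the E-box, 0.931% the D-box, 5.38% the ROR core and 1.55% the cAMP element. A match is a description of letters and not of binding.

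The time labels were checked with clock genes: the fitted peak lay at 21.1 hr for Arntl (Bmal1), 5.33 hr for Nr1d1 and 7.36 hr for Dbp. The 12 libraries had near-equal total signal (size factors 0.976 to 1.05). Libraries of the same time point correlated across genes with a median r of 0.979. The 2 ZT2 libraries stood apart from the rest. Their median r with libraries of other times was 0.944, against 0.967 among the other different times. In the study's list, they also had the lowest percentages of uniquely mapped sequences of the 12 RNA-Seq libraries. The part of this in the ZT2 levels was not tested. All 4 hepatocyte markers (Alb, Apoa1, Ttr and Tat) were above the minimum, and their summed level was 78177 and 81107 rpbp at ZT2 but 119763 to 151881 rpbp in the other 10 libraries. Most of this sum is Alb, which was at 50445 and 53126 rpbp at ZT2 and at 93174 rpbp or more elsewhere. Ttr and Tat were also lowest in both ZT2 libraries, whereas Apoa1 was highest there (17423 and 17762 rpbp), so the list did not move as a whole. None of 4 skeletal muscle markers passed the minimum (sum 0 to 11.7 rpbp), and of 2 adipocyte markers 1 did (sum 0 to 32.7 rpbp), Cfd, while Adipoq did not exceed 0.4 rpbp. The summed levels of the other marker lists were 133 to 254 rpbp for Kupffer cells (3 of 4 above the minimum), 56.1 to 74.0 for endothelial cells (4 of 4), 185 to 241 for stellate cells (3 of 4), 3.8 to 14.1 for cholangiocytes (1 of 3) and 295 to 857 for red blood cells (2 of 3). In these whole livers, fewer cells of a type and less RNA per cell cannot be told apart.

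To ask which glycogen genes cycle over the day, a rhythm was called by F24 (the share of a gene's variance over the 12 values in a 24 hr cosine) above 0.45, an amplitude (highest over lowest value) above 1.5 and a permutation p below 0.05. By these criteria 5 of the 8 mRNAs were rhythmic, against 19.1% of all expressed genes. They were 3 enzymes of synthesis (Gyg, Ugp2 and Gys2) and the 2 phosphatase targeting subunits that had a row (Ppp1r3b and Ppp1r3c). Gbe1, Pygl and Phka2 did not pass. Strong rhythms (F24 above 0.6 and the study's higher limit for the amplitude) were found for Gys2, Ppp1r3b and Ppp1r3c, 3 of 8, against 7.89% of expressed genes. With the permutation p adjusted over all 10198 genes (Benjamini-Hochberg), Ppp1r3c alone remained (1 of 8, against 4.98%), at an adjusted p of 0.0129. A 24 hr cosine fitted with limma kept Gys2, Ppp1r3b and Ppp1r3c (3 of 8, against 8.12%). The median F24 was 0.553 over the 8 genes and 0.310 over all expressed genes, and the median amplitude was 2.92 against 1.63.

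**Figure D1:**
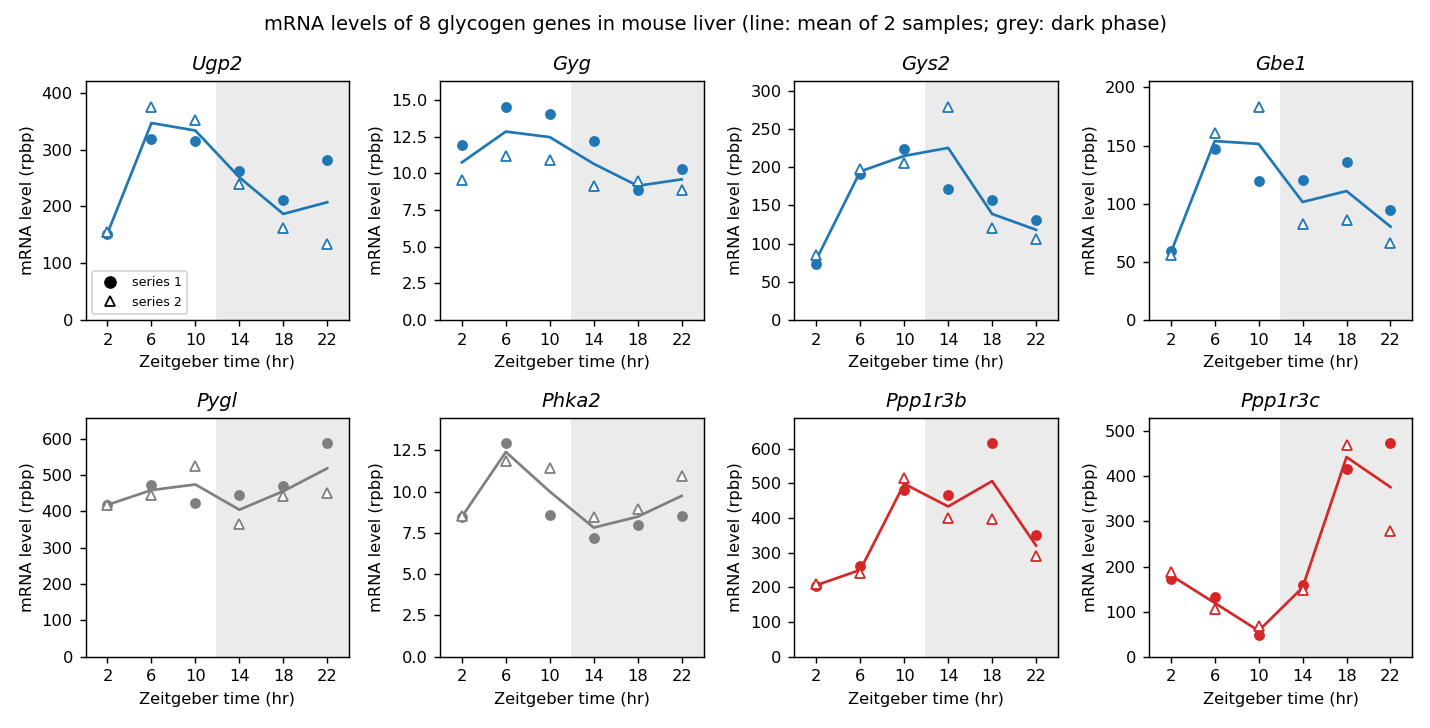
mRNA level (rpbp, linear axis from 0) against Zeitgeber time (hr) for the 8 glycogen genes; filled circles are series 1, open triangles series 2, the line joins the means of 2 samples, and grey is the dark phase. Ugp2, Gys2 and Gbe1 rise from ZT2 to ZT6, Ppp1r3c is lowest at ZT10 and highest at ZT18 and ZT22, and Pygl stays between 365 and 587 rpbp.

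**Figure D2:**
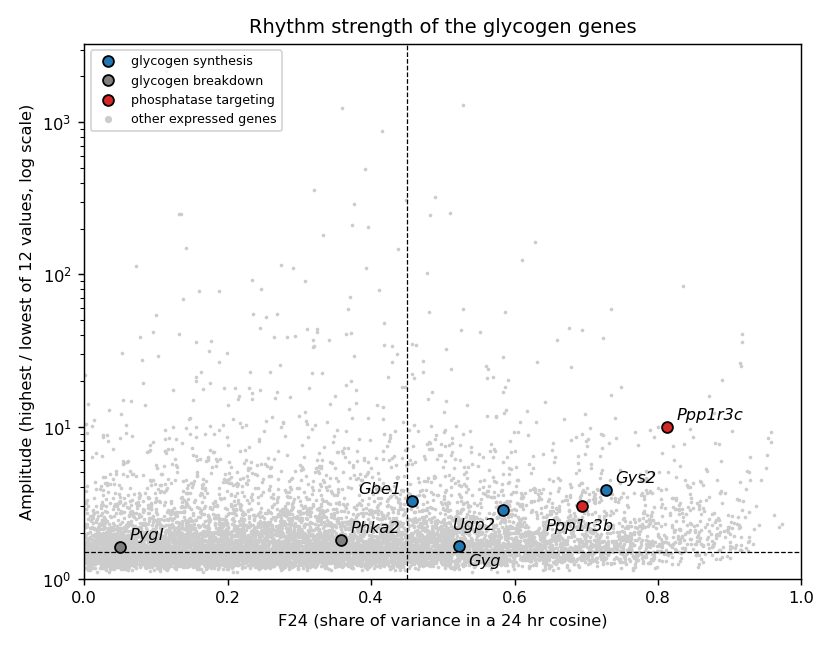
Amplitude (highest over lowest of the 12 values, log axis) against F24 for the glycogen genes (colored by role) and the other expressed genes (grey); 10118 genes are drawn, and 80 genes with a value of 0 are not. Dashed lines mark 0.45 and 1.5, and Ppp1r3c has the highest F24 (0.813) and amplitude (9.94) of the 8 genes while Pygl lies at an F24 of 0.0503.

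Among the genes of synthesis, Gys2 (mm9 chr6:142371133-142421629), the liver glycogen synthase, had the strongest rhythm. In series 1 its mRNA stood at 73.2, 191, 224, 171, 157 and 130.5 rpbp from ZT2 to ZT22 (6 time points, in this order here and for the genes that follow). In series 2 it stood at 84.9, 198, 205, 279, 121 and 106 rpbp. Both ZT2 samples lay below all 10 others, the highest mean was 225 ± 76.2 rpbp at ZT14 (SD, n = 2), and the samples of ZT6 and ZT10 were all above those of ZT18 and ZT22. F24 was 0.728, the amplitude 3.81-fold and the permutation p 0.0036 (adjusted p 0.0543), with a peak at 11.4 hr. The limma cosine gave an adjusted p of 0.0182. The rhythm was called in each of the 12 sets of 11 libraries, with F24 between 0.695 and 0.795. The series alone peaked at 11.3 and 11.6 hr, with permutation p of 0.15 and 0.133 over all 720 orders.

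Ugp2 (chr11:21221141-21271204) codes for the enzyme that makes UDP-glucose. Its level was 151, 318, 315, 263, 211 and 281 rpbp in series 1 and 155, 376, 352, 240.0, 163 and 134 rpbp in series 2. The 4 samples of ZT6 and ZT10 were the highest, and the ZT22 samples differed by 59.9% of the gene's mean. F24 was 0.584, the amplitude 2.81 and the permutation p 0.0262 (adjusted p 0.138; limma cosine adjusted p 0.0757), with a peak at 9.22 hr. Without the ZT22 sample of series 1, F24 was 0.828 (permutation p 0.0024). Without the ZT22 sample of series 2, it was 0.509 (permutation p 0.0698), and the call was also lost without the series 2 sample of ZT10 or ZT18. Of the exon bases of Ugp2, 2.54% overlap Gm12043 on the other strand, whose reads cannot be separated in coverage summed over both strands.

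Gbe1 (chr16:70314194-70569961), the branching enzyme, followed a course like that of Ugp2. Its level was 59.1, 147, 119, 120.1, 136 and 94.4 rpbp in series 1 and 56.3, 160.4, 183, 82.8, 86.2 and 66.3 rpbp in series 2. Both ZT2 samples were the lowest of the 12. F24 was 0.457 and the amplitude 3.26, but the permutation p was 0.0726, so that Gbe1 missed the call. The series peaked 3.25 hr apart, at 12.3 and 9.08 hr. Gbe1 was called without the series 1 sample of ZT18 (F24 0.583, permutation p 0.034) or the series 2 sample of ZT14 (F24 0.587, permutation p 0.0389).

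Gyg (chr3:20021970-20055216) codes for glycogenin, the primer of the chains, and was expressed at 10.9 ± 1.95 rpbp (SD over the 12 samples). It ran through 12.0, 14.6, 14.04, 12.2, 8.84 and 10.3 rpbp in series 1 and 9.56, 11.2, 10.9, 9.12, 9.48 and 8.88 rpbp in series 2. Series 1 was higher than series 2 at every time but ZT18. F24 was 0.522, the amplitude 1.65 and the permutation p 0.0369 (adjusted p 0.164). This was the smallest of the rhythms called. The amplitude of its time-point means was 1.40, below the limit of 1.5, and the call was lost in 5 of the 12 sets of 11 libraries.

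The genes of breakdown did not pass the rhythm criteria. Pygl (chr12:71291798-71332475), the liver glycogen phosphorylase, had the highest mean of the 8 genes, 455 ± 56.5 rpbp (SD, 12 samples). Its level was 418, 472, 423, 445, 469 and 587 rpbp in series 1 and 418, 445, 525, 365, 442 and 450 rpbp in series 2. The highest and the lowest sample differed 1.61-fold, and the fitted peaks of the series lay at 21.5 and 7.05 hr. F24 was 0.0503 (permutation p 0.8158), and it stayed at or below 0.215 whichever library was left out. The limma test for any difference between time points gave an adjusted p of 0.481. These tests do not show that its level was constant: the 95% interval of the difference between ZT22 and ZT10 ran from 0.848-fold to 1.40-fold.

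Phka2 (chrX:156940098-157036810) codes for the liver alpha subunit of phosphorylase kinase, which switches the phosphorylase on. Its level was 8.44, 12.9, 8.6, 7.2, 8.0 and 8.52 rpbp in series 1 and 8.52, 11.9, 11.4, 8.44, 8.96 and 10.96 rpbp in series 2. Both ZT6 samples were above all others. From ZT10 on, series 2 was higher than series 1. F24 was 0.358 (permutation p 0.1372). Many values lay near the expression minimum, and 1.90% of its exon bases overlap Gm15243 on the other strand.

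The targeting subunits Ppp1r3b and Ppp1r3c, which bring protein phosphatase 1 to glycogen, were both rhythmic, with different peaks. Ppp1r3c (chr19:36806227-36811143), also known as PTG, had the largest rhythm of the 8 genes. Its level was 172, 133, 47.6, 160.0, 417 and 473 rpbp in series 1 and 189, 106, 67.6, 147, 468 and 279 rpbp in series 2. The 4 samples of ZT18 and ZT22 lay above the 8 others, and both ZT10 samples lay below the rest. The means were 57.6 ± 14.2 rpbp at ZT10 and 442 ± 36.2 rpbp at ZT18 (SD, n = 2). F24 was 0.813, the amplitude 9.94, the permutation p 0.0002 and the peak 20.2 hr. The series peaked at 20.5 and 19.7 hr, and F24 was between 0.786 and 0.872 in the 12 sets of 11 libraries, all of which gave a call. In series 1 alone the permutation p was 0.0167, the smallest that 6 values can give, and in series 2 alone it was 0.0833.

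Ppp1r3b (chr8:36438795-36451178) codes for the liver glycogen targeting subunit, G(L). Its level was 203, 261, 482, 466, 615 and 350.4 rpbp in series 1 and 209, 240.2, 516, 400.3, 398 and 290.4 rpbp in series 2. The 4 samples of ZT2 and ZT6 were the lowest, and the samples of ZT10, ZT14 and ZT18 lay above those of ZT22. F24 was 0.694, the amplitude 3.02 and the permutation p 0.0078 (adjusted p 0.0770), with a peak at 14.6 hr. The limma cosine gave an adjusted p of 0.0115, and the rhythm was called in each of the 12 sets of 11 libraries.

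The rhythmic mRNAs peaked in the order Gyg (7.66 hr), Ugp2 (9.22 hr), Gys2 (11.4 hr), Ppp1r3b (14.6 hr) and Ppp1r3c (20.2 hr). The fitted peaks of the enzymes of synthesis thus lay in the light phase and those of Ppp1r3b and Ppp1r3c in the dark phase. The peaks of the 2 series lay between 0.0465 and 1.98 hr apart, and the ranges spanned by the series did not overlap between neighbors in this order. Differences between phases were not tested, and samples were 4 hr apart. Without both ZT2 libraries, Ugp2 and Gyg had nearly the same fitted peak (7.22 and 7.23 hr), followed by Gys2 (10.7 hr), Ppp1r3b (14.6 hr) and Ppp1r3c (20.8 hr), so the order of Gyg before Ugp2 rests on these libraries.

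**Figure D3:**
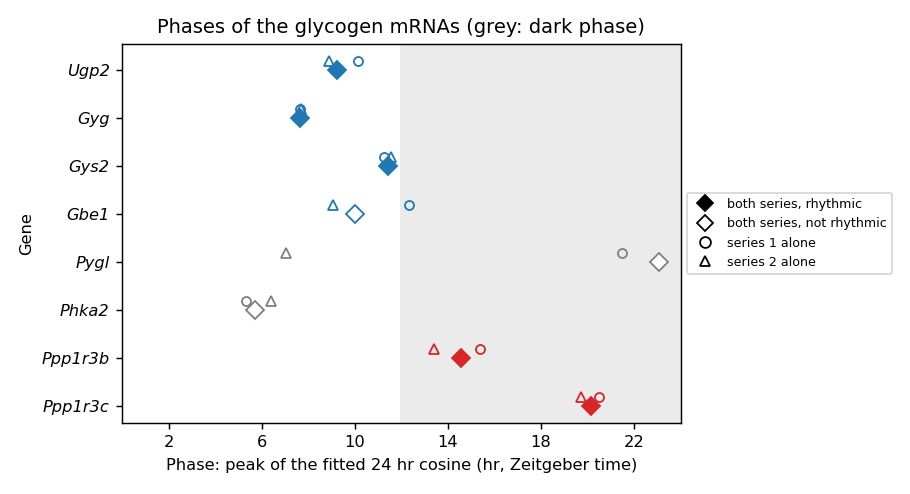
Phase (peak of the fitted cosine, hr of Zeitgeber time) of each glycogen mRNA; diamonds use both series (filled where the rhythm was called), circles series 1 and triangles series 2, and grey is the dark phase. The series lie within 1.98 hr of each other for the 5 rhythmic genes and 9.57 hr apart for Pygl.

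Among the hepatocyte markers, Alb itself met the rhythm criteria with all libraries, while Apoa1, Ttr and Tat did not. F24 of the summed level of these 4 markers was 0.553. Both ZT2 libraries were low in Alb, Ttr and Tat and in Gys2, Ppp1r3b and Gbe1. The rhythms were therefore also computed from the other 10 libraries, an alternative added after the values were seen. Then 4 of 8 genes were called, against 15.1% of expressed genes. Ppp1r3c (F24 0.849, permutation p 0.0032), Gys2 (0.668, p 0.0208) and Ugp2 (0.741, p 0.0107) were called again. Ppp1r3b (0.551, p 0.0648) and Gyg (0.572, p 0.0584) no longer passed, and Phka2 (0.715, p 0.0217) did. The part of the ZT2 libraries' composition in the levels at that time was not tested beyond this.

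Differences between time points that need not follow a cosine were tested with limma on log2(rpbp + 1) across all expressed genes. Levels of 4 of 8 genes differed between the 6 time points, against 17.6% of expressed genes. These were Ppp1r3c (adjusted p 0.00164), Ppp1r3b (adjusted p 0.00961), Gys2 (adjusted p 0.0131) and Gbe1 (adjusted p 0.0444). Gbe1 was close to the threshold, and with a pseudocount of 0.1 its adjusted p was 0.0512. It also missed without any 1 of 8 libraries (adjusted p 0.0525 to 0.139). Gys2 missed the threshold without the ZT2 sample of series 1 (adjusted p 0.0650). Ugp2 missed it with all libraries (adjusted p 0.0674) but passed without the ZT22 sample of series 1 (adjusted p 0.00523) or of series 2 (adjusted p 0.00933).

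Time points 12 hr apart were then compared in the same fit, where a fold change is on the log2(rpbp + 1) scale. From ZT2 to ZT14, 2 of 8 genes rose, against 12.4% of expressed genes that changed in either direction. Gys2 rose 2.75-fold (log2 difference 1.46 ± 0.23 SE, limma adjusted p 0.00540) and Ppp1r3b 2.09-fold (1.06 ± 0.19, adjusted p 0.0101). The difference of Gys2 passed in all 12 sets of 11 libraries and was between 1.11 and 1.81 in them. That of Ppp1r3b missed the threshold without either ZT2 sample or without the ZT14 sample of series 1 (adjusted p 0.0535 to 0.0628). Ugp2, with a log2 difference of 0.71, missed the threshold with all libraries (adjusted p 0.145) and passed without the ZT22 sample of either series (adjusted p 0.0211).

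From ZT6 to ZT18, 2 of 8 genes rose, against 2.74% of expressed genes that changed. Ppp1r3c rose 3.70-fold (log2 difference 1.89 ± 0.25 SE, limma adjusted p 0.00829) and Ppp1r3b 1.97-fold (0.98 ± 0.19, adjusted p 0.0347). Ppp1r3b lost this call without any 1 of 7 libraries, and without the ZT18 sample of series 1 its difference was 0.67. Ppp1r3c lost it without the series 2 sample of ZT6 or ZT18 (adjusted p 0.0695 and 0.0655). The log2 differences of the enzymes of synthesis were negative in this comparison, from -0.44 for Gyg to -0.90 for Ugp2, and none passed the test with all libraries. Ugp2 passed without the ZT22 sample of either series (adjusted p 0.0261).

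From ZT10 to ZT22, 1 of 8 genes changed, against 7.02% of expressed genes. Ppp1r3c rose 6.31-fold (log2 difference 2.66 ± 0.25 SE, limma adjusted p 0.00136), with a 95% interval from 4.25-fold to 9.36-fold. It passed in all 12 sets of 11 libraries, with log2 differences from 2.28 to 3.04. The log2 difference was -0.89 for Gbe1 (adjusted p 0.105), -0.86 for Gys2 (adjusted p 0.0553), -0.78 for Ugp2 (adjusted p 0.151) and -0.64 for Ppp1r3b (adjusted p 0.0855). Gys2 passed with an expression minimum of 16 rpbp (adjusted p 0.0441) or without either ZT14 sample (0.0234), Ugp2 without the ZT22 sample of series 1 (-1.31, adjusted p 0.0103), and Ppp1r3b without either ZT18 sample (0.0285).

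Because Ugp2, Gys2 and Gbe1 all lay higher at ZT6 than at ZT2, these neighboring time points were compared too, a choice made after the values were seen. Gbe1 rose 2.63-fold (limma adjusted p 0.0126), Gys2 2.44-fold (adjusted p 0.00681) and Ugp2 2.25-fold (adjusted p 0.0247), 3 of 8 genes against 19.0% of expressed genes. In both series, each of these mRNAs was higher at ZT6. Phka2, with a log2 difference of 0.50, missed the threshold (limma adjusted p 0.0565). It passed with the series number as a term in the fit (adjusted p 0.0409). With 1 sample of either time left out, Gbe1 and Ugp2 missed the threshold each time, and Gys2 missed it without the ZT2 sample of series 1 (adjusted p 0.0515). Of the hepatocyte markers, Alb, Ttr and Tat were also lower in both ZT2 samples than in both ZT6 samples, and Apoa1 was higher. Their part in this difference was not tested.

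**Figure D4:**
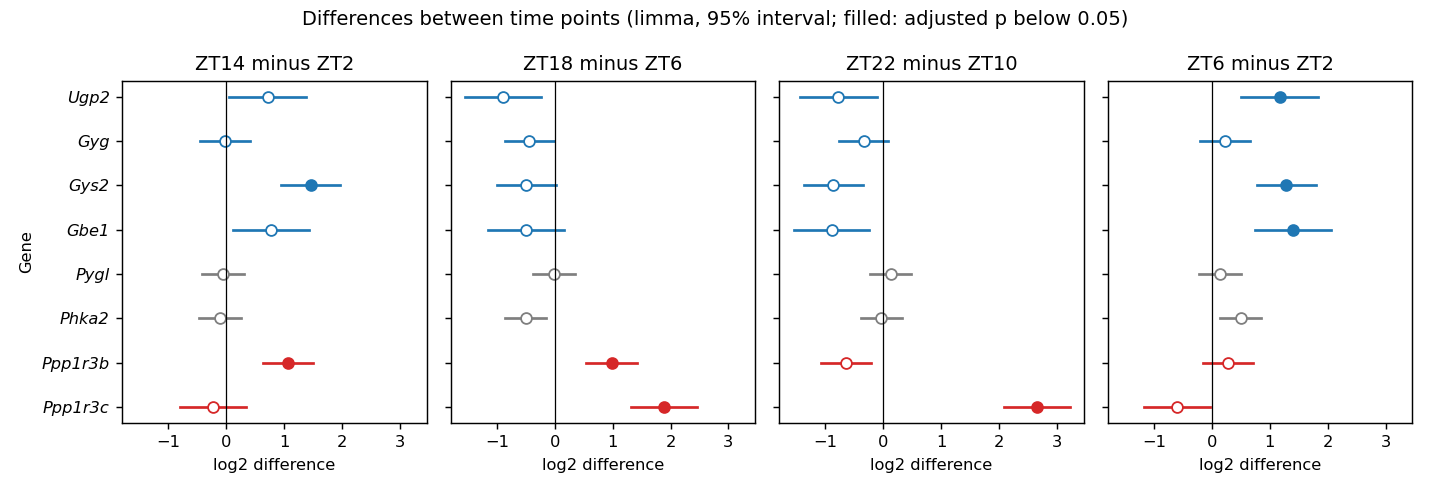
Difference in log2(rpbp + 1) between the named time points for each glycogen gene, with its 95% interval from limma; filled circles have an adjusted p below 0.05 and colors mark the role. Ppp1r3c is 2.66 higher at ZT22 than at ZT10, and Ugp2, Gys2 and Gbe1 are 1.17 to 1.40 higher at ZT6 than at ZT2.

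Ratios within a sample do not depend on the scaling of the library. The ratio of Gys2 to Pygl, synthase to phosphorylase mRNA, ranged from 0.175 to 0.765. Its mean was 0.189 ± 0.0196 at ZT2 and 0.575 ± 0.268 at ZT14 (SD, n = 2), and the 2 samples of ZT14 differed most. The ratio of Ppp1r3b to Ppp1r3c was 8.88 ± 1.77 at ZT10 and 0.891 ± 0.213 at ZT22. Ppp1r3b was thus the more abundant of these mRNAs in every sample of ZT2, ZT6, ZT10 and ZT14, while at ZT18 and ZT22 the order differed between the series.

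**Figure D5:**
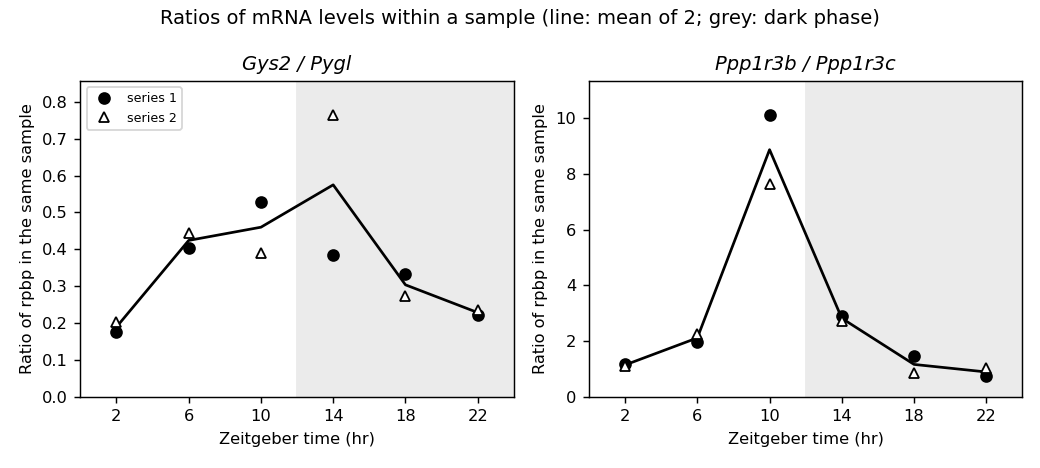
Ratio of mRNA levels (rpbp over rpbp in the same sample) against Zeitgeber time for synthase over phosphorylase (left) and for the 2 phosphatase subunits (right); circles are series 1, triangles series 2, the line joins means and grey is the dark phase. The right ratio is 8.88 at ZT10 and 0.891 at ZT22, and the left ratio is lowest at ZT2.

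The genes were also compared with each other over the 12 samples, which share libraries and time points, so that correlations are given as a description. Ugp2 and Gbe1 varied most alike (Pearson r 0.861), followed by Ugp2 and Gys2 (0.694). Ppp1r3c ran against the enzymes of synthesis, with r of -0.576 for Gyg, -0.482 for Ugp2, -0.477 for Gys2 and -0.341 for Gbe1. For the genes of breakdown, its r was -0.331 with Phka2 and 0.395 with Pygl. Ppp1r3b and Ppp1r3c were close to unrelated (0.150). Of all expressed genes, those most like Ppp1r3c were Dapk1 (0.958), Snag1 (0.944) and Pnkd (0.944). Those most like Gys2 were Fkhr2 (0.928), Cyp2e1 (0.927) and Hsd17b6 (0.926). Lrrc58 (0.875) and Psd3 (0.868) were among those most like Ppp1r3b, and for Pygl they were Abcb4 (0.917), Ctf1 (0.888) and Etfdh (0.874).

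By mean level per exon base over the 12 samples, the order was Pygl (455 ± 56.5 rpbp, SD), Ppp1r3b (369 ± 133), Ugp2 (246 ± 84.1), Ppp1r3c (222 ± 152), Gys2 (162 ± 61.3), Gbe1 (109 ± 41.6), Gyg (10.9 ± 1.95) and Phka2 (9.49 ± 1.81). Between neighbors in this order, only the gap from Gbe1 to Gyg was larger than the larger SD of the pair, by 2.36 times. Gys2 was nevertheless above Gbe1 in 12 of 12 samples, whereas Ugp2 was above Ppp1r3c in 6 of 12.

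The rest of the pathway was described from a list of 36 genes, of which 35 had a row and 25 passed the expression minimum. Of these, 4 were rhythmic, against the background of 19.1%, among them Slc37a4, Slc2a2 and Prkaca. The median F24 over the 25 genes was 0.340 and the median amplitude 1.51, close to the medians of all expressed genes. The genes of the other isoforms, among them the muscle synthase Gys1, the muscle phosphorylase Pygm and the muscle subunit Ppp1r3a, stayed below the minimum in all 12 samples (highest values 2.60, 1.16 and 0.16 rpbp).

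Slc37a4 and Slc2a2 carry glucose 6-phosphate into the endoplasmic reticulum and glucose across the cell membrane. Slc37a4 was at 99.9, 166, 234, 209, 144 and 147 rpbp in series 1 and 100.1, 153, 237, 231, 136 and 107 rpbp in series 2. It was highest at ZT10 and ZT14 in both series (F24 0.880, peak 11.7 hr, permutation adjusted p 0.0208). Slc2a2 (GLUT2) was at 129 and 104 rpbp at ZT2 and at 481 and 441 rpbp at ZT6 (F24 0.515, peak 10.2 hr, permutation p 0.0472, adjusted p 0.183). This call was kept in 2 of the 12 sets of 11 libraries and was lost with F24 on a log scale and with the limma cosine (adjusted p 0.146), whereas that of Slc37a4 was kept in all 12. Both ZT2 samples of Slc2a2 lay below all others, as for Gys2.

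Prkaca, a catalytic subunit of protein kinase A, peaked at 22.7 hr with an amplitude of 1.64 (F24 0.494, permutation p 0.0481, adjusted p 0.184). Its values ran from 43.7 to 71.8 rpbp, and the call was kept in 4 of the 12 sets of 11 libraries and lost when amplitudes were taken from time-point means.

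G6pc and Gcgr did not pass the rhythm criteria. G6pc, the catalytic subunit that frees glucose, ranged from 260 to 773 rpbp (F24 0.440, permutation p 0.0772), and Gcgr, the glucagon receptor, from 243 to 289 rpbp (F24 0.373, permutation p 0.1287). In the limma test for any difference between time points, 7 of 25 genes passed, against 17.6% of expressed genes. Among them were Slc37a4 (adjusted p 0.00437), Slc2a2 (0.00469), Pgm2 (0.02), Stbd1 (0.0386) and G6pc (0.0452). G6pc was lowest at ZT6 in both series.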

How the data were processed

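Poly(A) RNA of 12 mouse livers was sequenced. Per the labels and methods, the authors used CASAVA 1.8 and TopHat (mm9), kept uniquely mapped sequences, summed coverage over the flattened exons of each gene without strand and divided it by exon length. The deposited values are therefore a coverage signal per base pair, which the authors scaled to the uniquely mapped sequences; it was multiplied by 4 here, the scale of the study. It is not a count, and no counting interval was computed, although the study lists the uniquely mapped sequences of each library. The deposited F24 score, phase and p-value are the authors' own and were not used. Columns named ZT20 were taken as ZT22, the time in the labels.

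Values were tested with 10000 random orders (smallest p 0.0001) and with limma 3.58.1 on log2(rpbp + 1), with Benjamini-Hochberg adjustment over 10198 genes. Both were tested on simulated data. The series numbers were not used to pair samples, except in the block alternative. Deviations from time-point means correlated at a median of -0.0258 within a series (-0.153 to 0.206). Named are the 9 genes, the 3 genes most like Gys2, Pygl, Ppp1r3b and Ppp1r3c, pathway genes that passed, and G6pc and Gcgr; Gys1, Pygm, Ppp1r3a, Pgm2 and Stbd1 were added. A few genes that this rule names are not reported here. The 9 genes were taken by function, but they, the lists and the tests were chosen with earlier results of these data known. Coordinates are GENCODE genes on mm9. Alternatives were the expression minimum, scaling, log scales, adjusted p, limma, time-point means, a series block and removal of samples. Python 3.11.15, numpy 2.4.6, pandas 2.3.3, matplotlib 3.10.9 and R 4.3.3 were used. Nascent RNA and ChIP samples were not analysed here.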

Additional observations from a re-analysis of the deposited data

How the results depend on the processing

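With all samples, 5 glycogen genes were called rhythmic. The count was 4 to 5 under other expression minimums, scaling, log scales and time-point means (Gyg lost where it was 4), and 4 without both ZT2 libraries, where Gyg and Ppp1r3b were lost and Phka2 was gained. It was 1 with the adjusted p and 3 with the limma cosine. With single samples left out the count was 3 to 6, the lowest without series 2 of ZT18 or ZT22 and the highest without series 2 of ZT14, where Gbe1 was gained, and with a series alone 0 (series 2) and 2 (series 1). Of the other 25 pathway genes, 4 were rhythmic, 1 with the adjusted p, 2 with limma, 2 to 4 with single samples left out and 0 in either series alone. Of all expressed genes, 1948 were rhythmic, 508 with the adjusted p, 828 with limma, and 286 to 369 in a series alone. In limma, 1792 genes differed between time points, and 724 to 1676 with 1 sample left out; the lone sample of that time is then assumed to vary like the others. The members that differed numbered 2 to 5 (4 with all) and the calls between times 12 hr apart 3 to 8 (5 with all), the highest without ZT22 of series 1. With the series number as a block, 5 glycogen genes were rhythmic, 3 instead of 4 differed between time points (Gbe1 lost, adjusted p 0.0607), 5 calls stood between times 12 hr apart, and 2120 of all genes were rhythmic. The labels link the samples of a series only by this number. None of the 8 differences that passed in limma changed sign under these alternatives, while 5 of the 24 that did not pass did, in Pygl, Gyg and Phka2. Beyond the smaller number of samples, the cause of these shifts was not tested. No counting error was computed for Gyg and Phka2, which lay near the minimum, so its size beside their changes is not known here.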

Other observations

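Ppp1r2, an inhibitor of protein phosphatase 1 and one of the other pathway genes, was singled out after its values were seen. It was at 27.2 to 35.2 rpbp in 11 samples and at 1.16 rpbp in the ZT14 sample of series 2. Its amplitude of 30.3 rests on this sample, and F24 was 0.199 (permutation p 0.3785).

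Prkar1a, a regulatory subunit of protein kinase A, had an F24 of 0.725 with a peak at 1.64 hr (permutation adjusted p 0.0182). Its amplitude was 1.40, below the limit for a call.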
